A study of Capra hircus with 2 samples.

Results

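The miR-181 family was measured in small RNA from mammary tissue of dairy goats (Capra hircus). Its 4 members, miR-181a, miR-181b, miR-181c and miR-181d, were followed through all sequence tags that hold nucleotides (nt) 2 to 17 of a member. A tag is a distinct sequence with its number of reads. Of 659118 distinct tags in both libraries together, 409 belonged to the family, and 0 tags held this stretch of more than 1 member. When all tags were grouped in the same way by 16 nt, they formed 315297 groups, of which the members were 4.

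The study compared peak lactation (90 days postpartum) with late lactation (210 days postpartum). At each stage, gland tissue was taken by surgery from 5 healthy Laoshan dairy goats all in the same lactation number, aged 4 years, and nothing else was given to the animals as far as the labels and methods say. The RNA of the 5 goats was pooled into 1 small RNA library per stage, so no spread between animals or libraries can be given. A level is given as reads per 1000000 clean reads (RPM), and 1 read was worth 0.0525 RPM in the peak library and 0.135 RPM in the late library.

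MicroRNAs (miRNAs) are short RNAs that guide a silencing complex to messenger RNAs, mainly through the seed, nt 2 to 8 of the miRNA. The miR-181 family is conserved across vertebrates, and its members share 1 seed and differ further along the molecule. They come from several hairpin genes that lie in small clusters, and the family is best known for its work in lymphocytes, where miR-181a tunes the sensitivity of the T cell receptor. It is expressed in many other tissues. In the ARS1.2 gene table of RefSeq, MIR181C and MIR181D are listed next to each other, between NANOS3 and ZSWIM4.

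The 4 sequences below show what the members share and where they differ. They were read from the deposited tags, 5′ to 3′, with the seed in capitals.
miR-181a: aACATTCAacgctgtcggtgagt
miR-181b: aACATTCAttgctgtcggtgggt
miR-181c: aACATTCAacctgtcggtgagt
miR-181d: aACATTCAttgttgtcggtgggt
Positions are counted from 1 at the 5′ end, and the base of the first-named miRNA comes first. From miR-181a to miR-181b the differences were A9T, C10T and A21G. From miR-181b to miR-181d there was 1 difference, C12T. The sequence of miR-181c was that of miR-181a without the G at position 11, which made it 22 nt long in place of 23 nt. The seed ACATTCA was the same in all 4, so the members were told apart only by bases outside it.

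The tags carry no names, and no table of mature miRNA sequences was used here. The names therefore rest on 3 observations. Of the 315297 groups, 1 lay within 5% of the read counts that the study listed for miR-181a in both libraries, and 1 lay within 5% of those for miR-181b, and this pair had the same seed. The 4 groups with the most reads among the 77 groups with that seed were a, b and the pair related to them by a single base, which is how miR-181d is known to differ from miR-181b and miR-181c from miR-181a. Since the listed counts come from the same libraries, the match says which tags carry a name and lends no further weight to their levels. The list also holds each name with the ending -5p, at other counts. The sums here differed from those by between 11.2% and 20.5% for miR-181a and miR-181b in single libraries. For miR-181c and miR-181d, the difference from the counts listed under either form of the name was between 10.4% and 41.7%. No listed count lay within 5% of their sums, so these names are less firm than the plain names of miR-181a and miR-181b. The last member by reads, miR-181c, had 121 reads at peak and 17 at late lactation, and the next group with the seed had 81 and 19. The 73 groups that are no member held 686 and 117 reads.

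The family was lower in the late lactation library. Its tags summed to 89015 reads or 4674 RPM at peak and to 11102 reads or 1503 RPM at late lactation, which is 3.11-fold lower. The log2 ratio of late over peak lactation was -1.64 (95% interval -1.67 to -1.61). This interval is exact and covers counting error only, because PCR copies are not separate molecules and pooling removed the differences between goats. In tissue of mixed cells, fewer cells of a type and less RNA per cell cannot be told apart.

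miR-181a made up most of the family. It gave 80693 reads at peak and 9955 at late lactation, or 4237 RPM (95% Poisson interval 4208 to 4267) and 1348 RPM (1322 to 1375). Its log2 ratio was -1.65 (-1.68 to -1.62), or 3.14-fold lower in late lactation. Among all 16-nt groups ordered by reads, it went from rank 24 to rank 57.

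miR-181b, which is made from the same kind of hairpin cluster as miR-181a, was about an order of magnitude less abundant. It gave 8078 and 1102 reads, or 424 RPM (415 to 434) at peak and 149 RPM (141 to 158) at late lactation. Its log2 ratio was -1.51 (-1.60 to -1.42), and its rank went from 140 to 256.

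The other two members, whose genes lie side by side, were rare. miR-181c gave 121 and 17 reads, or 6.35 RPM (5.27 to 7.59) and 2.30 RPM (1.34 to 3.69). Its log2 ratio was -1.46 with a wide interval of -2.29 to -0.73. miR-181d gave 123 and 28 reads, or 6.46 RPM (5.37 to 7.71) and 3.79 RPM (2.52 to 5.48), with a log2 ratio of -0.77 (-1.42 to -0.17). In both libraries the order was miR-181a, miR-181b and then this pair, and the intervals of miR-181c and miR-181d overlapped at each stage. They were therefore not ordered.

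**Figure D1:**
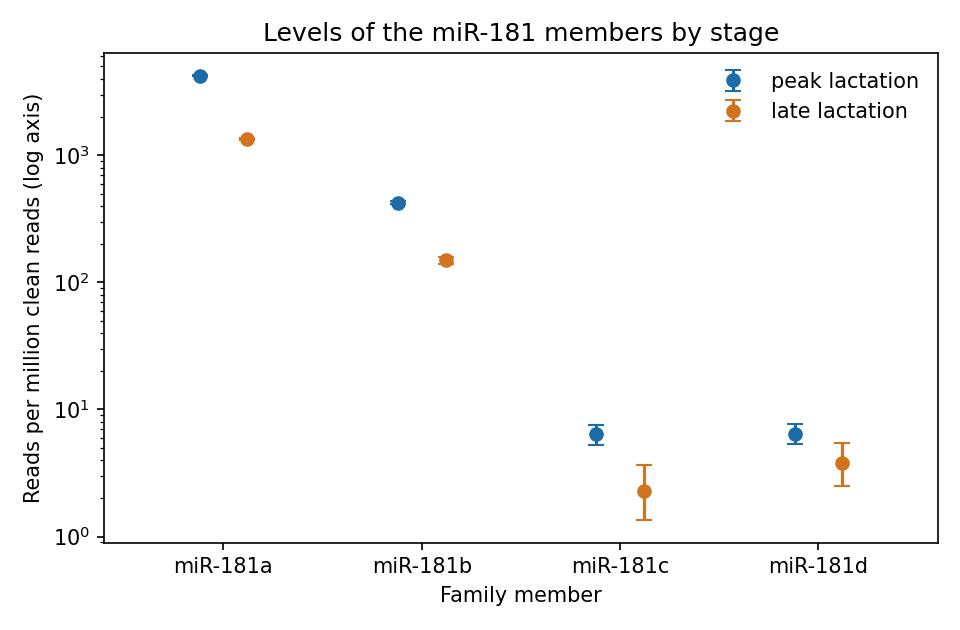
Level in RPM (log axis) of each member, with 1 point for the peak lactation library and 1 for the late lactation library and bars for the 95% Poisson interval of counting error. miR-181a fell from 4237 to 1348 RPM and miR-181b from 424 to 149 RPM, while miR-181c and miR-181d lay below 10 RPM in both.

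A call needed a change of 2-fold or more and an Audic-Claverie P under 0.01. The methods text of the study gives a formula for P without a name, which was taken here to be this one. It was applied to raw reads, and it compares the reads of a pair of libraries and not the stages. Of the 4 members, 3 were called lower in late lactation, namely miR-181a, miR-181b and miR-181c, and 0 were called higher. For miR-181c the Audic-Claverie P was 1.39e-05, or 3.62e-05 after Benjamini-Hochberg adjustment over all groups tested. For miR-181d the P was 0.00892 (0.0159 adjusted) at 1.70-fold lower, so it did not pass the fold limit. The call of miR-181c rested on its leading tag, without which the counts were 48 and 11 reads, the log2 ratio was -0.76 and the P was 0.121.

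These calls stand beside many others, in groups made from all tags with no selection for miRNAs. Of the 7374 groups with at least 1 RPM in either library, 21.5% were called lower and 34.5% higher by the same rule. Among the 444 groups with at least 100 RPM in either library, the range of miR-181a and miR-181b, 32.0% were called lower and 26.4% higher. The median log2 ratio was 0.37 over the 7374 groups, -0.38 over the 444 abundant groups and -1.49 over the 4 members. Of the abundant groups, 13.7% had a ratio at or below that of miR-181a. The libraries also differed as a whole, since 5′ adaptor contaminants took 0.0494% of high-quality reads at peak and 14.0% at late lactation, and the part of this difference in the ratios was not tested.

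**Figure D2:**
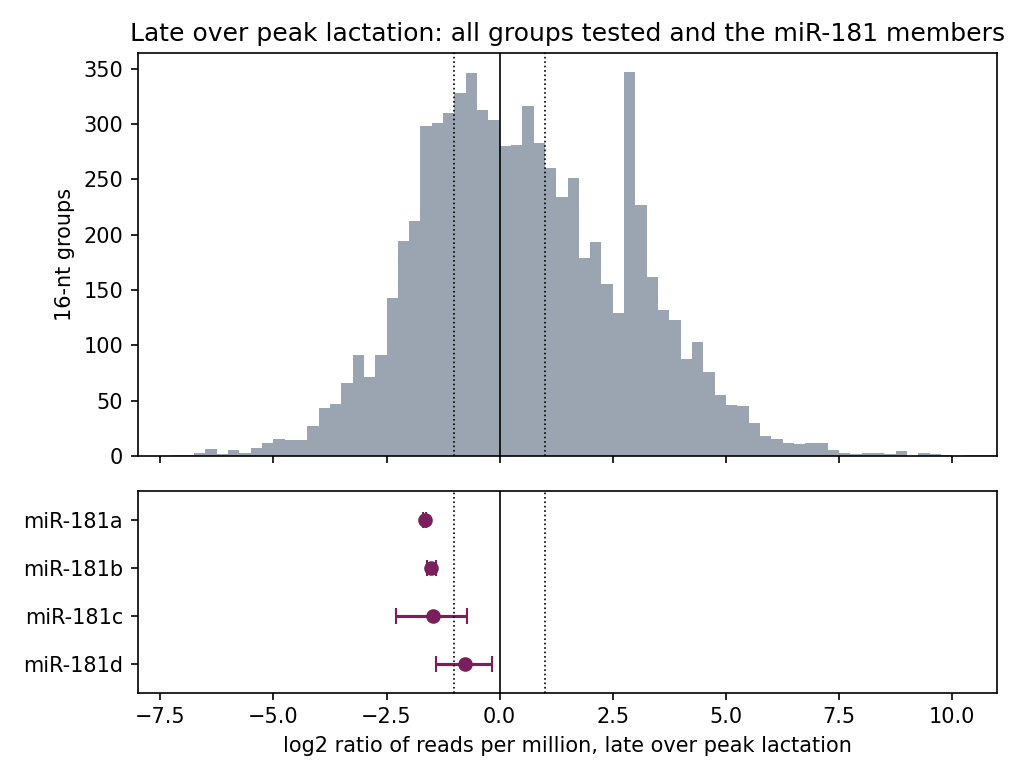
The upper panel shows how many of the 7374 groups of tags fell in each bin of the log2 ratio of late over peak lactation, with a group without reads in a library set at 3 reads there. The lower panel shows the 4 members with their 95% intervals, and dotted lines mark 2-fold. The members lie between -1.65 and -0.77, all left of 0, in a region that many other groups share.

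By the measure of likeness used here, the absolute difference in log2 ratio from the family over the 2 libraries, 3 groups came nearest among 254 groups with at least 100 RPM in both. With 1 ratio per group this is a weak measure. The groups were made from all tags, with no selection for miRNAs. Besides miRNAs, the paper annotated ribosomal, transfer and other small RNAs among the clean reads. The type of RNA of these 3 groups was not determined. They are given by their most abundant tag.
nearest group 1: cgtaacttcgggataaggattggc
nearest group 2: gcatgttggaacaatgtagg
nearest group 3: tgaattgcaggacacattgatc
Their log2 ratios were -1.65, -1.59 and -1.71. Their levels in peak lactation were 603 RPM, 411 RPM and 342 RPM, all below miR-181a.

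The shares of miR-181a and miR-181b changed little between the libraries. The share of miR-181a in the family was 90.7% (90.5 to 90.8) at peak and 89.7% (89.1 to 90.2) at late lactation. miR-181b took 9.07% (8.89 to 9.27) and 9.93% (9.38 to 10.5). miR-181c took 0.136% (0.113 to 0.162) and 0.153% (0.0892 to 0.245). miR-181d took 0.138% (0.115 to 0.165) and 0.252% (0.168 to 0.364), on 123 and 28 reads. The intervals of the libraries did not overlap for miR-181a, miR-181b and miR-181d.

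Whether the reads of the members differed by unequal amounts between the libraries was tested in 6 pairs with the two-sided Fisher exact test. Its P and intervals cover counting error only, and compare the pair of libraries and not the stages. There were 9.99 reads of miR-181a per read of miR-181b at peak and 9.03 at late lactation, a difference in log2 ratio of -0.15 (95% interval -0.24 to -0.05, adjusted P = 0.0172 by the exact test). Without the leading tag of each member this order turned, with log2 ratios of -1.25 for miR-181a and -1.32 for miR-181b. Against miR-181d, the log2 ratio of miR-181a differed by -0.88 (-1.49 to -0.24, adjusted P = 0.0172 by the exact test). That of miR-181b differed from miR-181d by -0.74 (-1.35 to -0.08, adjusted P = 0.0451 by the exact test). The 3 pairs with miR-181c had adjusted P of 0.290 or above by the exact test. The interval was -0.93 to 0.64 for miR-181a minus miR-181c and -0.79 to 0.79 for miR-181b minus miR-181c. For miR-181c minus miR-181d it was -1.73 to 0.31. At this depth, any difference within its interval remains possible for a pair.

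Among the reads counted, the 5′ end of the members was nearly fixed. A tag that began more than 1 base after the first base could not be counted under the rule for a member. The shares of starts therefore do not cover such reads, and how many there were was not tested. For miR-181a, 99.8% of reads at peak and 99.5% at late lactation began at the first base shown above. For miR-181b these shares were 98.9% and 98.5%. The median over 241 groups with at least 1000 reads in both libraries was 69.8% and 73.9% for reads at the start of the leading tag. These groups were not selected for miRNAs, and whether a fixed start is particular to the family was not tested. Since a shift by 1 base changes the seed, the reads with another seed were few among those counted. A start 1 base later was seen in 0.203% of miR-181a reads at peak and 0.191% at late lactation, and in 1.003% and 1.09% of miR-181b reads. A start 1 base earlier was seen in 0.0310% and 0.211% of miR-181a reads, and in 0.0371% and 0.0907% of miR-181b reads. All 121 miR-181c reads and all 123 miR-181d reads of peak lactation began at the first base, as did 16 of 17 and 28 of 28 in late lactation.

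The 3′ end varied, and here the libraries differed. The 6 tags below carry most of the difference.
miR-181a, 21 nt: aACATTCAacgctgtcggtga
miR-181a, 22 nt: aACATTCAacgctgtcggtgag
miR-181a, 25 nt: aACATTCAacgctgtcggtgagttt
miR-181b, 21 nt: aACATTCAttgctgtcggtgg
miR-181b, 24 nt: aACATTCAttgctgtcggtgggtt
miR-181b, 25 nt: aACATTCAttgctgtcggtgggttt

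The 21-nt tag of miR-181a was its most abundant tag in peak lactation, with 34887 reads or 1832 RPM, and had 2493 reads or 338 RPM in late lactation. It went from 43.2% to 25.0% of miR-181a reads, with a log2 ratio of -2.44 (-2.50 to -2.38). The 23-nt tag of miR-181a, shown first above, had 23741 and 3193 reads with a log2 ratio of -1.53 (-1.58 to -1.47), so it was the leading tag in late lactation. The 22-nt tag between them had 4630 and 1478 reads, with a log2 ratio of only -0.28 (-0.37 to -0.20), and a share that went from 5.74% to 14.8%.

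miR-181b showed the same contrast at its 21-nt tag, which had 2336 and 208 reads, or 28.9% and 18.9% of miR-181b, and a log2 ratio of -2.12 (-2.33 to -1.92). Its 22-nt tag had 1350 and 157 reads with a log2 ratio of -1.74 (-1.99 to -1.50). Its share went from 16.7% to 14.2%, whereas that of the 22-nt tag of miR-181a was higher in late lactation. Its 23-nt tag had 1653 and 235 reads with a log2 ratio of -1.45 (-1.65 to -1.25).

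Tags longer than the 23-nt form ended mostly in added T. The 25-nt tag of miR-181a, with 2 more T, had 161 reads or 8.45 RPM at peak and 286 reads or 38.7 RPM at late lactation. Its log2 ratio was 2.20 (1.91 to 2.48), against the direction of the member as a whole, and it went from 0.200% to 2.87% of miR-181a. The tag with 1 more T had 464 and 272 reads, or 24.4 RPM and 36.8 RPM, with a log2 ratio of 0.60 (0.37 to 0.82).

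For miR-181b, the 25-nt tag had 63 reads in each library, which was 3.31 RPM at peak and 8.53 RPM at late lactation and a log2 ratio of 1.37 (0.84 to 1.89). Its 24-nt tag had 605 and 134 reads, or 31.8 RPM and 18.1 RPM, with a log2 ratio of -0.81 (-1.09 to -0.54). This tag was thus lower in late lactation, although it went from 7.49% to 12.2% of miR-181b. With 3 more T, the log2 ratio was 0.30 (-0.50 to 1.06) for miR-181a and -0.15 (-0.84 to 0.50) for miR-181b. Reads of 24 to 26 nt made up 0.968% of miR-181a at peak and 6.77% at late lactation, and 10.8% and 25.5% of miR-181b. Whether the added T were copied from the genome or attached later cannot be read from these data, as no goat genome was used here.

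Of the 409 tags of the family, 49 reached 1 RPM in either library. By the call rule, 23 of these were lower in late lactation (46.9%) and 4 were higher (8.16%), beside 32.3% and 26.5% of all 26175 tags tested. The 4 higher tags, named after their values were seen, were the 25-nt tags of miR-181a and miR-181b just described and a pair of rare tags of miR-181a that end in A.
miR-181a, 24 nt with final A: aACATTCAacgctgtcggtgagta
miR-181a, 25 nt with final A: aACATTCAacgctgtcggtgagtta
The first had 21 and 25 reads and the other 2 and 12 reads. All 4 were longer than 23 nt.

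**Figure D3:**
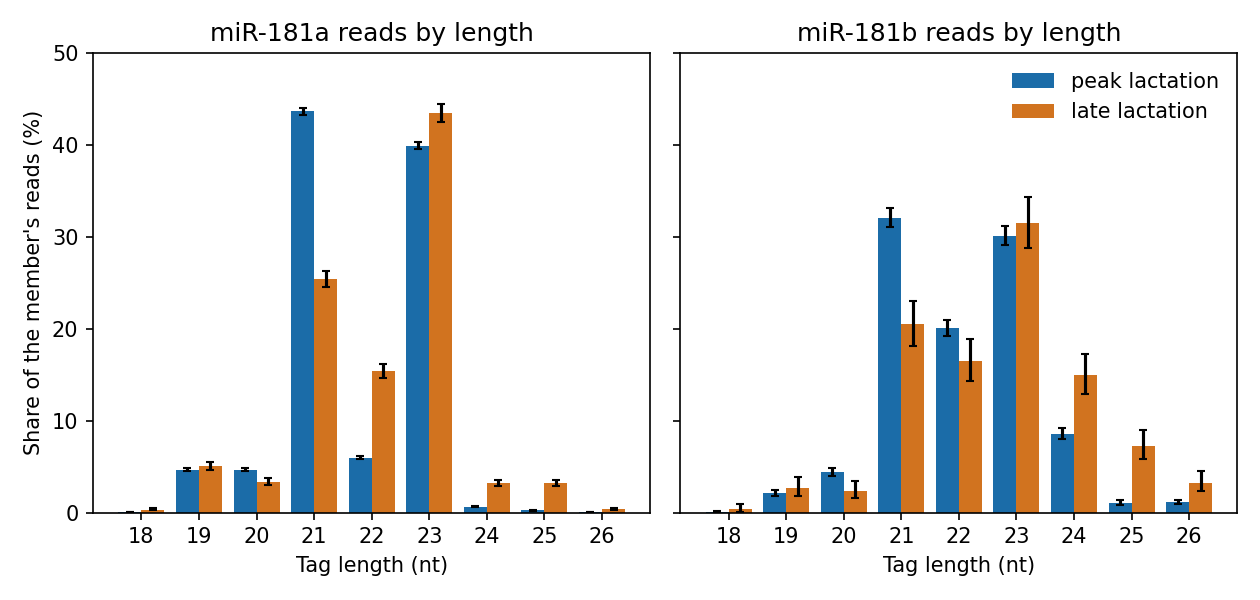
Share of the reads of miR-181a (left) and miR-181b (right) by tag length from 18 to 26 nt in peak and late lactation, with bars for the 95% exact binomial interval. Reads of 21 nt went from 43.6% to 25.4% of miR-181a and from 32.1% to 20.5% of miR-181b, and the longest classes were larger in late lactation.

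The mean length followed. For reads of up to 30 nt it was 21.75 nt at peak and 22.13 nt at late lactation for miR-181a, and 22.09 nt and 22.64 nt for miR-181b. All clean reads together became shorter, from 22.23 nt to 21.64 nt. Over the 241 groups with at least 1000 reads in both libraries, the median difference was -0.19 nt, and 75 groups were longer in late lactation. The increase was 0.38 nt for miR-181a, exceeded by 20 groups, and 0.55 nt for miR-181b, exceeded by 14 groups. Longer forms in late lactation were therefore not particular to the family.

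The last base of the full-length form was also compared. Of the miR-181a reads that matched the first 22 nt and had 23 nt, 25.5% (25.0 to 25.9) at peak and 24.7% (23.5 to 26.1) at late lactation ended in A in place of T. For miR-181b these shares were 29.1% (27.2 to 30.9) and 30.1% (25.3 to 35.3). For miR-181d they were 13.7% (5.70 to 26.3, 7 of 51 reads) and 43.8% (19.8 to 70.1, 7 of 16 reads), and for miR-181c, at 22 nt, 23.2% (15.1 to 32.9) and 40.0% (12.2 to 73.8, 4 of 10 reads). The intervals overlapped between the libraries for each member, and a difference in these shares was not tested. The rare pair rested on few reads.

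The number of distinct tags depended on depth, so it was also compared at equal reads. miR-181a had 192 distinct tags at peak and 110 at late lactation, and miR-181b had 132 and 53. The peak reads of each member were thinned to its late reads in 10 random draws. The mean was then 125.1 (119 to 133 over the draws) for miR-181a and 80.0 (74 to 85) for miR-181b. All draws of this pair lay above the late numbers of 110 and 53. miR-181c had 7 distinct tags in each library. miR-181d had 14 and 6, and 9.1 on average after thinning.

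miR-181c and miR-181d differ from an abundant relative by a single base, so their reads were set beside those of the other tags that differ by 1 base. In peak lactation, miR-181d came to 154 reads per 10000 of miR-181b, and 258 in late lactation. The other 43 single-base differences from miR-181b within nt 2 to 17, those near another member left out, had at most 6 reads (7.51 per 10000, C16A) in peak lactation and at most 2 (18.4 per 10000, C3T) in late lactation. miR-181c came to 15.04 reads per 10000 of miR-181a at peak and 16.2 at late lactation. Other tags that lacked 1 base of miR-181a had at most 10 reads at peak and 3 at late lactation. The members were chosen as the 4 groups with the most reads, summed over both libraries, among those with the seed. That both rare members stood above the other differences outside the seed in this sum was therefore set by the choice. In late lactation alone, C12T of miR-181a had 25 reads (25.2 per 10000), above miR-181c. The order in the sum lends no support to their names.

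Single-base differences from miR-181a had more reads than those from miR-181b, as miR-181a itself had. The 46 differences from miR-181a that are near no other member had a median of 11.5 reads and a maximum of 92 (11.4 per 10000, C10A) in peak lactation, and a maximum of 25 (25.2 per 10000, C12T) in late lactation. The group that came next to the members in reads, with 81 and 19 reads, is both C10T of miR-181a and T9A of miR-181b. It stood at 10.1 and 19.2 reads per 10000 of miR-181a, inside the range of the other differences from miR-181a, and was not counted as a member.

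**Figure D4:**
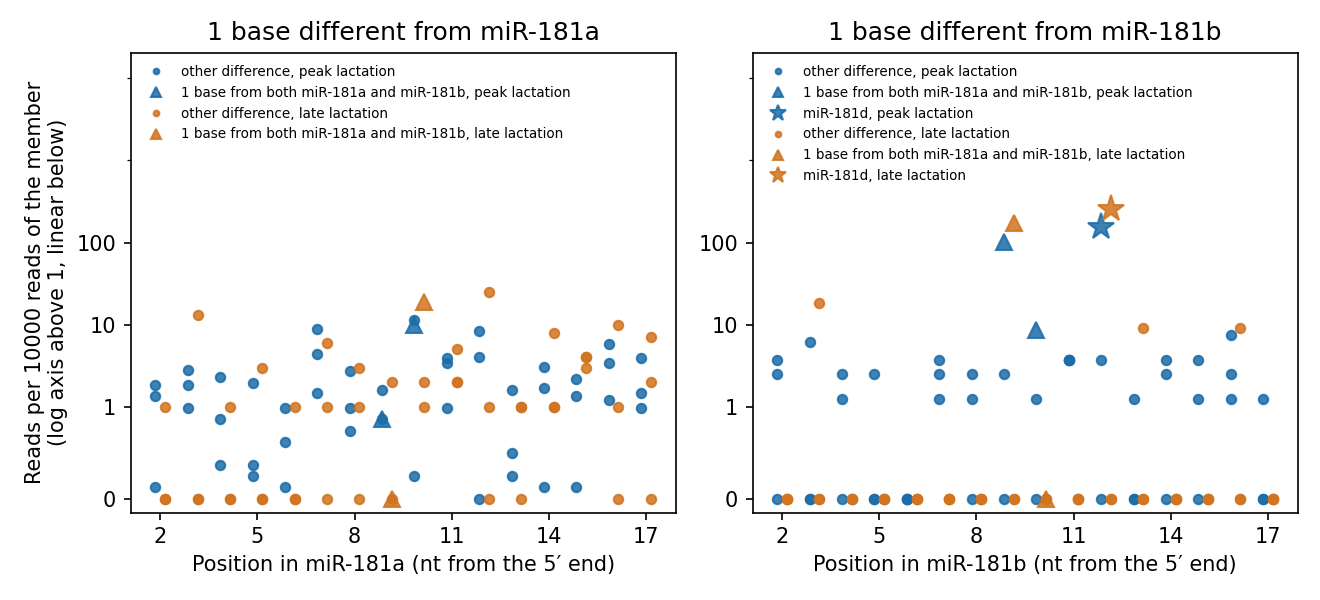
Reads of tags that differ by 1 base from miR-181a (left) or miR-181b (right), per 10000 reads of that member, by position within nt 2 to 17 (log axis above 1, linear below). Stars mark miR-181d, at 154 in peak and 258 in late lactation, triangles mark sequences 1 base from both miR-181a and miR-181b, and dots mark all other differences.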

How the data were processed

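Total RNA of 5 goats per stage was pooled, RNA between 18 and 30 nt was cut from a gel, and the library was amplified with 15 PCR cycles and read on an Illumina 1G Genome Analyzer. The authors removed low-quality and adaptor reads and collapsed identical reads, and they deposited the count of reads of each tag, not normalized, with the tag length, and the read counts of each filtering step. No tool version for the filtering and collapsing of reads was found in these sources, and their later mapping and annotation were not used here. The clean counts summed to 19044002 at peak and 7385833 at late lactation.

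Tags were grouped by nt 2 to 17 of the most abundant tag not yet grouped, and RPM used all clean reads. A tag belonged to a member where it held its nt 2 to 17 without mismatch. The sequence shown is the most abundant tag of 23 nt (22 nt for miR-181c). P is the smaller tail of the Audic-Claverie formula on raw reads, doubled. Here a count of 0 was set at 3 reads. The methods of the study describe the inputs of their P formula as normalized values and replace a value of 0 by a small constant. The 2-fold limit is not stated there and was inferred from the marks of the supplementary list. Intervals are 95% exact binomial (Clopper-Pearson), exact Poisson or, for pairs, exact conditional intervals. With 1 library per stage no replicate test was possible. The call rule was run on simulated Poisson counts, and there 3-fold changes of groups with few reads were often missed. These counts held no spread between goats or libraries, so they cannot show whether a call holds between the stages. The miRNAs listed as markers of other cell types, the opposite (3p) arms and the groups of a reference miRNA table were planned but not analysed here, because no file used here pairs their names with sequences, and the 16-nt groups replaced the latter. Named tags are the 3 most abundant of each member in each library, those with more T at the end, the 3 nearest groups and the tags said above to be chosen by value. The members, lists and tests were chosen with earlier results of these data known. Alternatives used factors from edgeR 4.0.16 (TMM) and DESeq2 1.42.0 in R 4.3.3. Other calculations used Python 3.11.15, numpy 2.4.6, scipy 1.17.1 and matplotlib 3.10.9.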

Additional observations from a re-analysis of the deposited data

How the results depend on the processing

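The family and its 4 members were lower in late lactation under each of the 12 alternatives run. The log2 ratio ranged from -1.82 to -1.26 for the family, from -1.83 to -1.25 for miR-181a, from -1.69 to -1.32 for miR-181b, from -2.24 to -0.76 for miR-181c and from -0.95 to -0.68 for miR-181d. The lowest values for the family, miR-181a, miR-181b and miR-181d came from DESeq2 median-ratio factors, which added -0.18 to each log2 ratio, and TMM added -0.12. Without the most abundant tag of each member, an alternative chosen after seeing the data, miR-181c no longer passed (log2 -0.76, exact Audic-Claverie P = 0.121), with fewer reads left. That setting put the share of miR-181a at 88.6% in peak and 89.0% in late lactation, and the identical tag alone put it at 93.1% and 92.7%. miR-181d missed the 2-fold limit under all 12. With a filter of 10 RPM, 570 groups were called lower and 519 higher, against 1585 and 2543 at 1 RPM. For tags these counts were 1946 and 1437 against 8457 and 6938, with fewer tags tested. Totals of reads in a reference miRNA table and alternatives for the 3p arms were not run. No paired analysis was possible because each stage had 1 library, and for the same reason no library could be left out. Depth limits miR-181c and miR-181d, whose late counts were 17 and 28 reads.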

Other observations

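Substitutions in miR-181a differed in kind between the libraries. Of the reads that differed from miR-181a by 1 base and lay near no other member, C to A made up 29.8% (95% interval 26.7 to 33.1) of 801 reads in peak lactation and 3.54% (0.973 to 8.82) of 113 reads in late lactation. C to T made up 21.7% (18.9 to 24.7) and 47.8% (38.3 to 57.4). The totals were alike, at 99.5 and 114 reads per 10000 of miR-181a.

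Tags of the family longer than 30 nt, above the size range cut from the gel, held 39 reads in 28 tags of 38 to 44 nt in peak lactation and 3 reads in 3 tags in late lactation. They made up 0.0438% and 0.0270% of the family, beside 0.331% and 0.135% of all clean reads. Of the 31 such tags, 12 also held nt 2 to 17 of another group with at least 1000 RPM.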
